A study of Mus musculus with 12 samples.

Results

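The genes described here are 8 enzymes of heme synthesis in mouse liver: Alas1, Alas2, Alad, Uros, Urod, Cpox, Ppox and Fech. They were taken from a list of gene symbols, each matched to 1 Ensembl identifier among the 54838 in the deposited count table, by a rule that names the symbols and sets no threshold on measured values, although the list was drawn up with earlier results of these data known. All 8 had enough reads to be tested. Alas1, the enzyme that starts the pathway in liver, averaged 323 CPM ± 14.6 (SD, n = 3) in mice given PBS at normal oxygen and 1434 CPM ± 309 after dexamethasone. Cpox, an enzyme near the end of the pathway, averaged 144 CPM ± 31.3 in the same PBS mice and 267 CPM ± 55.5 in hypoxic PBS mice. CPM is the read count of a gene scaled to the size of its library, with sizes adjusted by the TMM method. Among the other 6 enzymes, the largest difference in any comparison between groups was -0.63 on the log2 scale, for Alas2 under hypoxia in mice given dexamethasone.

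The mice were of the C57BL/6J strain, with no transgene or mutation named in the labels, and whole liver was the source of RNA. They were kept at 21% oxygen (Normoxia) or 7% oxygen (Hypoxia) for 24 h, and then received an intraperitoneal injection of PBS or of 10 mg/kg dexamethasone (DEX), a synthetic activator of the glucocorticoid receptor. Livers were taken 2 h after the injection, and hypoxic mice had been returned to 7% oxygen for that time. Each of Normoxia_PBS, Normoxia_DEX, Hypoxia_PBS and Hypoxia_DEX had 3 libraries, numbered 1 to 3 in the labels. The series title asks how hypoxia alters the function of the glucocorticoid receptor. The labels do not state the age or sex of the mice.

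Heme is an iron-holding ring made partly in mitochondria and partly in the cytosol. Aminolevulinate synthase joins glycine to succinyl-CoA in the first and rate-limiting step, through Alas1 in liver and most tissues and through Alas2 in red cell precursors, and the later enzymes build, trim and oxidize the ring before ferrochelatase inserts iron. Hepatocytes use much of their heme for cytochromes P450, and liver Alas1 is known to be raised by fasting signals and by drug-sensing nuclear receptors and lowered by heme itself.

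Library totals ranged from 12464687 to 24715995 counts, and 13861 genes passed the filter on low counts. The tissue label fits its markers, since 10 hepatocyte markers summed to between 131100 and 169300 CPM per library. Hypoxia_DEX-1 and Hypoxia_DEX-3 differed less than the other pairs of replicates did, with a chi-square per gene of 1.79 against 10.5 to 38.4 for the other pairs, which is still above the 1 that sampling noise alone gives. On the second principal component of the 1000 most variable genes, the DEX libraries scored 9.2 to 25.6 and the PBS libraries -27.9 to -6.4. Hypoxia_PBS-1 scored -6.4 against -25.5 and -22.2 for the other Hypoxia_PBS libraries, and Hypoxia_DEX-2 scored 9.2 against 21.5 and 21.4. These were thus the PBS library and the DEX library closest to the other treatment. Kupffer cells are liver macrophages. Of 10 genes that mark them, 10 were lower under hypoxia both in PBS and in DEX mice, beside 16.8% and 22.2% of all genes. Their summed levels were 470 to 720 CPM in normoxic and 188 to 236 CPM in hypoxic libraries. Whether that change plays a part in the values of the enzymes under hypoxia was not tested.

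Alas1 lies on mouse chromosome 9 (chr9:106233455-106248654, minus strand, mm10). Its level in the Normoxia_PBS libraries was 327, 334 and 306 CPM, and in the Normoxia_DEX libraries 1553, 1665 and 1083 CPM. The Hypoxia_PBS libraries held 304.5, 387 and 360.5 CPM, and the Hypoxia_DEX libraries 1316, 1381 and 1310 CPM. All 6 DEX libraries stood above all 6 PBS libraries, the lowest of them being Normoxia_DEX-3. DEX raised Alas1 by 2.15 on the log2 scale in normoxia (SE 0.14), which is 4.45-fold, with an adjusted p of 3.47e-07 (quasi-likelihood test of edgeR, adjusted by the Benjamini-Hochberg method over all tested genes). In hypoxia the rise was 1.93 (SE 0.14), or 3.81-fold (edgeR adjusted p = 2.99e-06). Both calls held in each of 19 alternative analyses, which gave rises of 2.02 to 2.31 in normoxia and 1.84 to 2.02 in hypoxia.

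Oxygen alone did not give a call for Alas1. Hypoxia differed from normoxia by 0.12 in PBS mice (95% interval -0.17 to 0.41, edgeR adjusted p = 0.516) and by -0.10 in DEX mice (95% interval -0.39 to 0.19, edgeR adjusted p = 0.564), and the latter value changed sign without Normoxia_DEX-2. The test of the difference itself, the interaction of oxygen and DEX, gave -0.22 (95% interval -0.63 to 0.19, edgeR adjusted p = 0.707), so a DEX response in hypoxia that is lower by up to 0.63 or higher by up to 0.19 on the log2 scale lies within this interval.

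**Figure D1:**
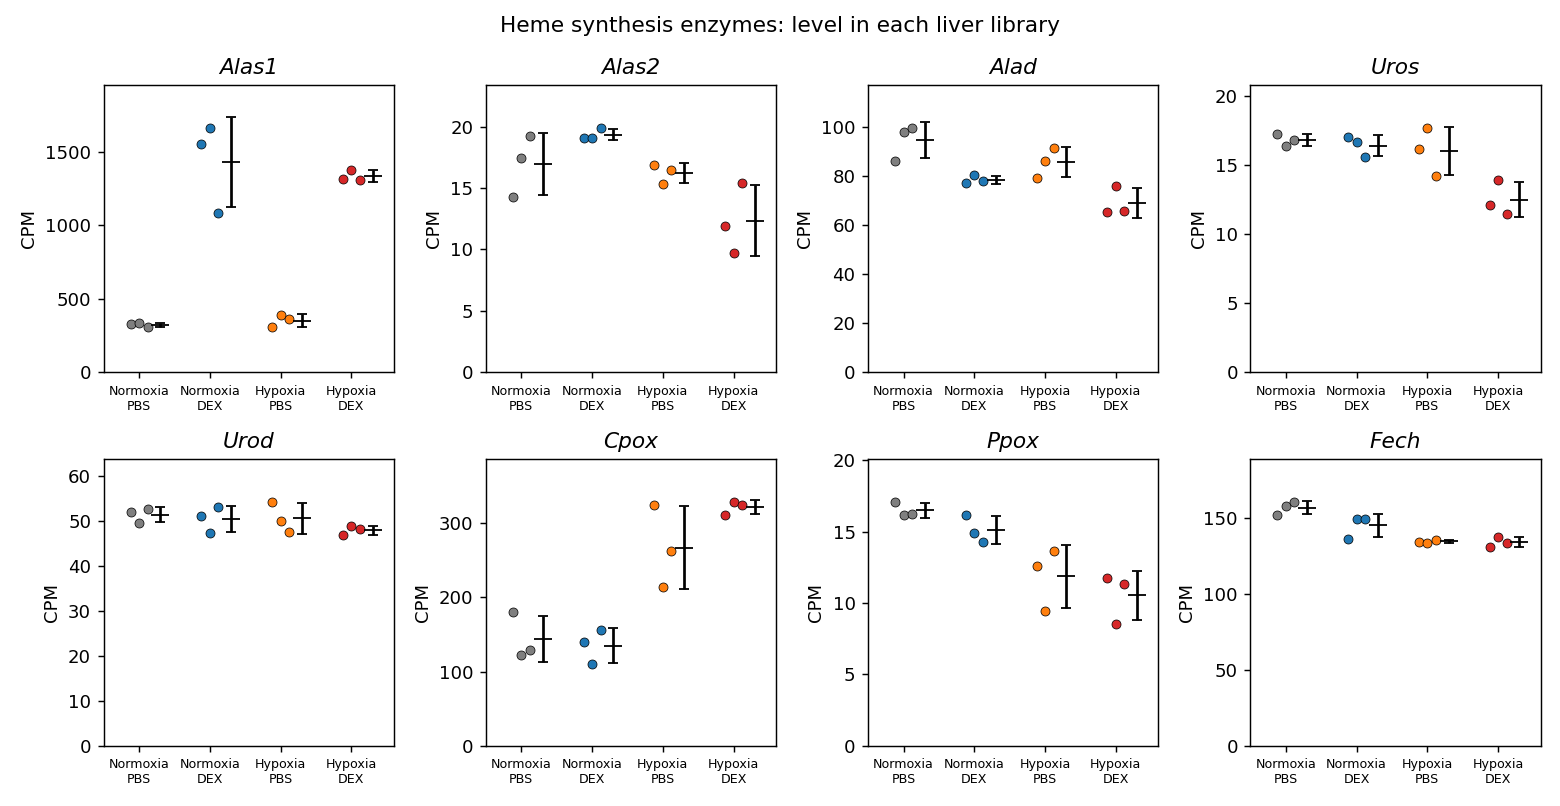
Level of the 8 heme synthesis enzymes in each of the 12 liver libraries, in CPM on axes that start at 0. Points are libraries 1 to 3 of each group from left to right, and the black bar beside them is the mean with its SD (n = 3). Alas1 is higher in all 6 DEX libraries than in all 6 PBS libraries, and Cpox is higher in all 6 hypoxic than in all 6 normoxic libraries.

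The promoters of the enzymes were read from RefSeq's mouse sequences (GRCm38.p6), in which 7 of the 8 enzymes had an entry, with 10 start sites in all. The 250 bases before each start were searched on both strands for AGAACA, a part of the element bound by the glucocorticoid receptor, for ACGTG or GCGTG, the core bound by hypoxia-inducible factors, for AGATAA or TGATAA, bound by GATA factors, for GCATGCGC, the core bound by NRF1, a regulator of mitochondrial genes, and for CACGTG, the E-box, which always contains ACGTG. Among 32817 mouse windows of this length, 16.1% held the glucocorticoid receptor word, 38.6% the hypoxia core, 16.6% a GATA word, 2.25% the NRF1 core and 6.02% the E-box. Alas1 has 2 start sites in this set, and neither window holds AGAACA. The window of the second start holds the NRF1 core on both strands, overlapping itself, and these 30 bases (chr9:106247906-106247935, minus strand) are shown because Alas1 is the enzyme of the 8 with the largest response to DEX. Both Alas1 windows lie inside the annotated span of the gene (chr9:106233455-106248654). The printed bases thus precede this RefSeq start but not the whole annotated gene. The capitals mark the overlapping NRF1 cores.
Alas1: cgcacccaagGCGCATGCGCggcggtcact
A word found in a window is a match of letters and says nothing here about binding, and a word that is not found says only that these letters are not in this window.

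Alad forms the pyrrole unit porphobilinogen from aminolevulinate and is encoded on chromosome 4 (chr4:62509169-62519918, minus strand). Its level was 86.05, 97.9 and 99.5 CPM in Normoxia_PBS and 77.1, 80.2 and 77.8 CPM in Normoxia_DEX. It was 79.1, 86.2 and 91.3 CPM in Hypoxia_PBS and 65.3, 75.8 and 65.6 CPM in Hypoxia_DEX. At either oxygen level the DEX libraries lay below the PBS libraries with no overlap. DEX lowered Alad by -0.27 on the log2 scale in normoxia (SE 0.08, edgeR adjusted p = 0.0392) and by -0.31 in hypoxia (SE 0.08, edgeR adjusted p = 0.0245). The change has the opposite sign to that of Alas1 and is far smaller. The normoxia call did not survive leaving out any single Normoxia_DEX library, Normoxia_PBS-3 or Normoxia_PBS-2, and its adjusted p ran from 0.0087 to 0.131. The hypoxia call did not survive leaving out Hypoxia_PBS-2, Hypoxia_PBS-3, Hypoxia_DEX-3 or Hypoxia_DEX-1, and was lost when only the groups compared were fitted and when Hypoxia_DEX-1 and Hypoxia_DEX-3 were summed (adjusted p of 0.00411 to 0.121). Hypoxia differed from normoxia by -0.14 in PBS mice (edgeR adjusted p = 0.195) and by -0.19 in DEX mice (edgeR adjusted p = 0.0847), the latter passing the threshold without Hypoxia_DEX-2 and when both libraries that stand apart were left out.

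Uros closes the linear chain of pyrroles into a ring and lies on chromosome 7 (chr7:133686243-133710072, minus strand). It was measured at 17.3, 16.4 and 16.8 CPM in Normoxia_PBS, 17.0, 16.7 and 15.5 CPM in Normoxia_DEX, and 16.1, 17.7 and 14.2 CPM in Hypoxia_PBS. The Hypoxia_DEX libraries held 12.1, 13.9 and 11.5 CPM, below every library of the other groups. Uros was lower by -0.40 in Hypoxia_DEX than in Normoxia_DEX (SE 0.10, edgeR adjusted p = 0.00576), a call that held in 19 of 19 alternatives. Against Hypoxia_PBS the difference was -0.36 (SE 0.10, edgeR adjusted p = 0.0309), and this call was lost in 8 alternatives, among them those without Hypoxia_DEX-1, Hypoxia_DEX-3, Hypoxia_PBS-1, Hypoxia_PBS-2 or Normoxia_DEX-2, with adjusted p from 0.0221 to 0.167. DEX in normoxia gave -0.03 (edgeR adjusted p = 0.869) and hypoxia in PBS mice -0.07 (edgeR adjusted p = 0.598). The interaction was -0.33 (SE 0.14, unadjusted p = 0.0357, edgeR adjusted p = 0.356) and did not pass.

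Urod, which removes carboxyl groups from the side chains of the ring, lies on chromosome 4 as well (chr4:116989965-116994413, minus strand). Its 12 values ran from 46.8 to 54.2 CPM, with group means of 51.4 ± 1.64, 50.45 ± 2.95, 50.6 ± 3.40 and 47.9 ± 1.03 CPM (SD, n = 3) in Normoxia_PBS, Normoxia_DEX, Hypoxia_PBS and Hypoxia_DEX. The groups overlapped in all 4 comparisons between groups, and the 95% intervals of the log2 fold changes ran from -0.23 at the lowest to 0.13 at the highest.

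Cpox, the mitochondrial oxidase that turns coproporphyrinogen into protoporphyrinogen, lies on chromosome 16 (chr16:58670292-58717636, plus strand). Its level was 179.8, 122 and 129.5 CPM in Normoxia_PBS and 139.8, 109.8 and 156 CPM in Normoxia_DEX. In Hypoxia_PBS it was 324.5, 214 and 263 CPM, and in Hypoxia_DEX 311, 329 and 324 CPM. Every hypoxic library exceeded every normoxic one, and the Hypoxia_DEX libraries were the closest together. Hypoxia raised Cpox by 0.89 on the log2 scale in PBS mice (SE 0.18, 1.86-fold, edgeR adjusted p = 0.00265) and by 1.25 in DEX mice (SE 0.18, 2.38-fold, edgeR adjusted p = 0.000226). Both calls held in 19 of 19 alternatives, with rises of 0.71 to 1.08 and 1.14 to 1.38.

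DEX did not give a call for Cpox, with -0.09 in normoxia (95% interval -0.48 to 0.30, edgeR adjusted p = 0.80) and 0.27 in hypoxia (95% interval -0.12 to 0.66, edgeR adjusted p = 0.374). The normoxia value changed sign without Normoxia_DEX-2 or Normoxia_PBS-1. The interaction was 0.36 (95% interval -0.19 to 0.91, edgeR adjusted p = 0.628). Alas1 and Cpox thus passed the threshold in different comparisons, Alas1 in both of DEX against PBS and Cpox in both of hypoxia against normoxia.

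The bases before the start of Cpox (chr16:58669958-58670207, plus strand, GRCm38.p6, 250 bases up to the RefSeq start) are shown because Cpox is the enzyme that rose under hypoxia. Capitals mark ACGTG at -106 to -102 and GCGTG at -39 to -35 from the start, which are hypoxia cores, and a GATA word read on the other strand at -86 to -81.
Cpox: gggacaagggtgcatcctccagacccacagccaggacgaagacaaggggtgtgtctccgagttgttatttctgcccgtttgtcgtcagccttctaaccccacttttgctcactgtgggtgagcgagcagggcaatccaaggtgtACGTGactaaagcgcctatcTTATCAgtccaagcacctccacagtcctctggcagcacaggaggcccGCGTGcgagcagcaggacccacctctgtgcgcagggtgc
Hypoxia cores are common in the windows of these enzymes and not particular to Cpox. They were also found at Ppox and Urod, at both start sites of Alad, and at 1 of the 2 starts each of Uros and Alas1, while the window of Alas2 has none. At Urod, at that start of Uros and at 1 start of Alad, the only cores are the 2 strands of 1 E-box. The other start of Alad has an E-box and 1 core apart from it. The cores at Cpox, Ppox and Alas1 are not in an E-box.

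Ppox, which oxidizes protoporphyrinogen, lies on chromosome 1 (chr1:171275990-171281186, minus strand). The Normoxia_PBS libraries held 17.1, 16.2 and 16.2 CPM and the Normoxia_DEX libraries 16.2, 14.9 and 14.2 CPM. The Hypoxia_PBS libraries held 12.6, 9.42 and 13.6 CPM and the Hypoxia_DEX libraries 11.7, 8.56 and 11.3 CPM. All 6 hypoxic libraries lay below all 6 normoxic ones, so the enzyme that follows Cpox in the pathway moved the other way under hypoxia. The difference was -0.47 in PBS mice (SE 0.14, edgeR adjusted p = 0.0164) and -0.51 in DEX mice (SE 0.14, edgeR adjusted p = 0.00932). The PBS call was lost without Hypoxia_PBS-2, where the value was -0.34, and without Normoxia_PBS-1, with adjusted p from 0.0049 to 0.0547 over the alternatives. DEX gave -0.13 in normoxia (edgeR adjusted p = 0.597) and -0.16 in hypoxia (edgeR adjusted p = 0.505).

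Of the exon bases of Ppox, 791 (17.5%) are shared with B4galt3, a gene on the opposite strand, and the sources used here do not give the strand setting of the authors' counting. B4galt3 had a similar difference, -0.42 in PBS mice (edgeR adjusted p = 0.0619) and -0.47 in DEX mice (edgeR adjusted p = 0.0343), at 5.96 to 8.55 CPM on average. Reads of these genes cannot be told apart in the shared bases unless strand was used.

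Fech, the ferrochelatase that inserts iron to complete heme, lies on chromosome 18 (chr18:64452914-64490251, minus strand). Its level was 152, 158 and 161 CPM in Normoxia_PBS and 136, 149.5 and 149.6 CPM in Normoxia_DEX. It was 134.5, 133.8 and 135.5 CPM in Hypoxia_PBS and 131, 137.5 and 133 CPM in Hypoxia_DEX. The Normoxia_PBS libraries were the 3 highest of the 12. Fech was lower by -0.22 under hypoxia in PBS mice (SE 0.06, edgeR adjusted p = 0.0153), a call that held in 19 of 19 alternatives. In DEX mice the difference was -0.12 (edgeR adjusted p = 0.158), and DEX in normoxia gave -0.11 (edgeR adjusted p = 0.264). DEX in hypoxia gave -0.01 (95% interval -0.14 to 0.13), a value whose sign changed in 11 alternatives, other scalings of the libraries included. The interaction was 0.11 (edgeR adjusted p = 0.704), so the fall under hypoxia is not shown to differ between PBS and DEX mice.

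Alas2, the aminolevulinate synthase of red cell precursors, lies on the X chromosome (chrX:150547375-150570638, plus strand). It was measured at 14.3, 17.5 and 19.2 CPM in Normoxia_PBS and 19.1, 19.1 and 19.9 CPM in Normoxia_DEX, from 111 to 460 reads in any of the 12 libraries. It was 16.9, 15.3 and 16.4 CPM in Hypoxia_PBS and 11.9, 9.70 and 15.4 CPM in Hypoxia_DEX. The 3 Normoxia_DEX libraries all lay above the 3 Hypoxia_DEX libraries and above the 3 Hypoxia_PBS libraries, and every other pair of groups overlapped. Alas2 was lower by -0.63 in Hypoxia_DEX than in Normoxia_DEX (SE 0.14, edgeR adjusted p = 0.00318), which held in 19 of 19 alternatives with values of -0.81 to -0.47. Against Hypoxia_PBS the difference was -0.38 (edgeR adjusted p = 0.108), and it passed the threshold without Hypoxia_DEX-3, with adjusted p from 0.0253 to 0.431 over the alternatives. Hypoxia in PBS mice gave -0.06 (edgeR adjusted p = 0.756, with the sign reversed without Normoxia_PBS-3) and DEX in normoxia 0.19 (edgeR adjusted p = 0.42). The interaction was -0.57 (SE 0.20, unadjusted p = 0.0145, edgeR adjusted p = 0.243) and did not pass after adjustment.

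The bases before the Alas2 start (chrX:150547167-150547374, plus strand, GRCm38.p6, 208 bases) are shown for comparison with those of Alas1, the gene for the same reaction. The searched window runs on to chrX:150547416, the last base before the RefSeq start, and the printed stretch stops before the first annotated exon. The capitals mark AGAACA at -121 to -116 from the RefSeq start and, read on the other strand, the GATA word AGATAA at -86 to -81.
Alas2: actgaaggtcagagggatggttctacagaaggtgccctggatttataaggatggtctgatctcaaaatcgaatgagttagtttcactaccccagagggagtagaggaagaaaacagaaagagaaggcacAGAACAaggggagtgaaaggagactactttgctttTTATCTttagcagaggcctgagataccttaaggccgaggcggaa
AGAACA stands in this window and at 1 start each of Alad and Uros, and in neither window of Alas1. Whether the word has a part in the DEX values of these enzymes was not tested.

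Alas2 is a marker of red cell precursors, and its values were therefore set beside 21 other markers of that lineage found in the table, 10 of which passed the filter on low counts. The markers differed widely in level. Klf1, an erythroid transcription factor, had 25 to 109 reads per library (group means of 1.92 to 5.36 CPM), Tal1, a transcription factor of blood precursors, 15 to 37, Car1, a carbonic anhydrase of red cells, 28 to 115, and Bpgm, the red cell bisphosphoglycerate mutase, 91 to 202. Others were near 0. Gata1, the master factor of the lineage, had 0 or 1 reads in any library, Epb42 and Rhag, a membrane skeleton protein and a membrane protein of red cells, had 0 or 1, and Slc4a1, the anion exchanger of red cells, had 0 to 9. The 4 adult globin genes summed to 37.96, 52.01 and 72.9 CPM in the Normoxia_PBS libraries from lowest to highest and to 56.3, 75.2 and 77.3 CPM in Normoxia_DEX. They summed to 74.8, 88.1 and 89.3 CPM in Hypoxia_PBS and to 62.6, 90.1 and 92.3 CPM in Hypoxia_DEX. The globin sum in Hypoxia_PBS thus lay above that in every Normoxia_PBS library, where Alas2 was not called, and overlapped between the DEX groups, where Alas2 was lower under hypoxia. The other 17 markers summed to 18.5 to 24.5 CPM per library.

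**Figure D2:**
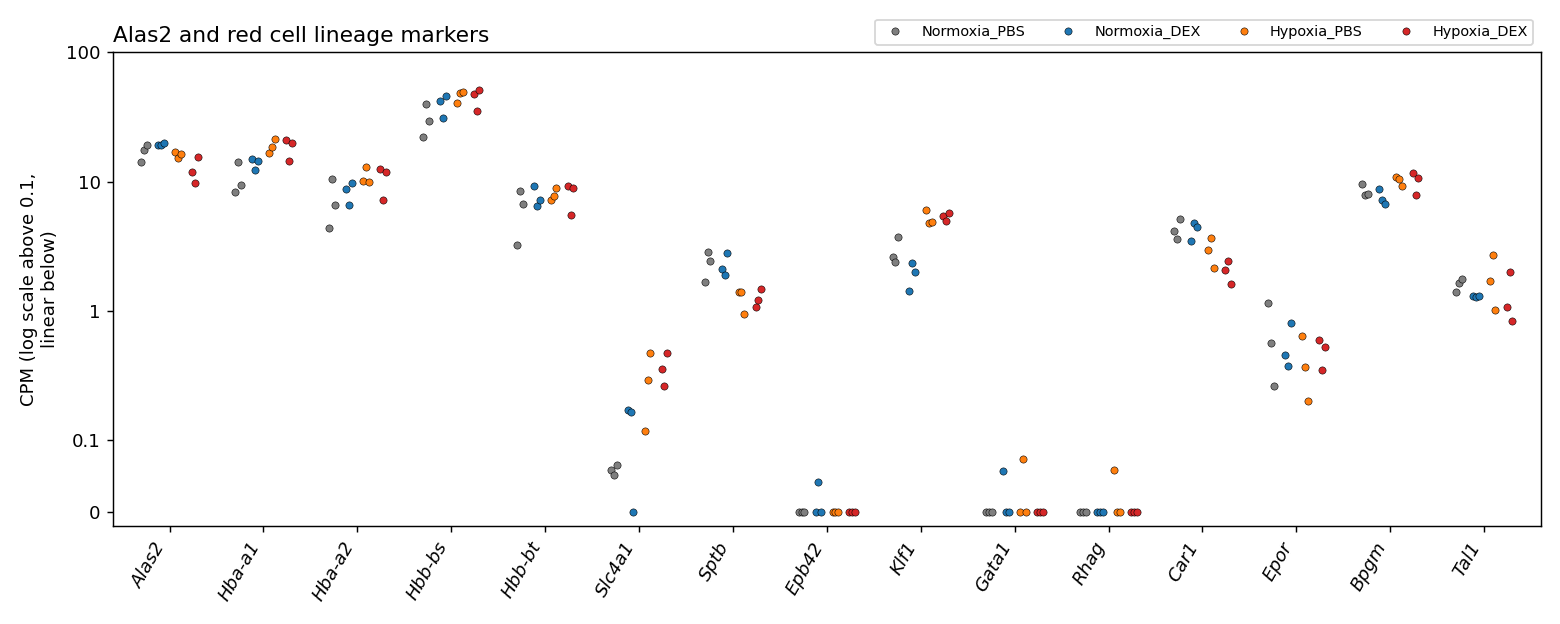
Alas2 and 14 markers of the red cell lineage in the 12 liver libraries, the 10 tested and 4 others, in CPM on an axis that is logarithmic above 0.1 and linear below. Points are libraries, coloured by group; Hbb-bs is the highest marker, with group means of 30.35 to 46.3 CPM, Bpgm, Car1, Klf1 and Tal1 lie below it, Epb42, Gata1 and Rhag lie at or near 0, and Alas2 stands between 9.70 and 19.9 CPM.

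By edgeR, 2 of the 10 tested lineage markers were higher and 1 was lower under hypoxia in PBS mice, beside 18.9% and 16.8% of all genes. Hba-a1, an alpha globin gene, rose by 0.81 (edgeR adjusted p = 0.00729) and Klf1 by 0.85 (edgeR adjusted p = 0.0063), while Sptb, the red cell beta spectrin, fell by 0.90 (edgeR adjusted p = 0.0183, lost without Hypoxia_PBS-3 or Normoxia_PBS-2). In DEX mice hypoxia gave 2 higher and 2 lower markers, beside 20.7% and 22.2% of all genes, with Klf1 at 1.47 (edgeR adjusted p = 0.000139), Bpgm at 0.42 (0.0404, lost without Hypoxia_DEX-1, Hypoxia_DEX-3, Normoxia_DEX-2 or Normoxia_DEX-3), Car1 at -1.08 (0.00238) and Sptb at -0.83 (0.0223, lost without Hypoxia_DEX-1, Hypoxia_DEX-2 or Normoxia_DEX-3). Hbb-bs, a beta globin gene, was at 0.60 in PBS mice (edgeR adjusted p = 0.0575, passing without Normoxia_PBS-2 and by DESeq2) and 0.18 in DEX mice (edgeR adjusted p = 0.539). DEX gave 0 calls among the 10 markers at either oxygen level by edgeR and 0 by DESeq2, with 1 marker lower at an unadjusted p under 0.05 at each level. By edgeR, 9.38% of all genes were higher and 7.4% lower with DEX in normoxia, and 6.13% and 7.05% in hypoxia. A count of 0 among 10 markers thus does not set them apart from all genes. The median change of the 10 markers under hypoxia was 0.32 in PBS mice and 0.12 in DEX mice, beside 0.007 and -0.021 for all tested genes. In whole liver, fewer cells of a type and less RNA per cell cannot be told apart, and which cells the Alas2 reads came from was not tested.

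Alas2 also shares 311 of its exon bases (12.9%) with Apex2 on the opposite strand. Apex2 rose under hypoxia, from 7.999 to 11.9 CPM in PBS mice (log2 0.58, edgeR adjusted p = 0.0132) and from 5.60 to 11.98 CPM in DEX mice (log2 1.09, edgeR adjusted p = 0.000186). The direction in DEX mice is opposite to that of Alas2. The antisense genes that overlap Alas1 and Cpox, 4930500F10Rik and Gpr15, had at most 3 and 2 reads in a library.

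Across the 8 enzymes, hypoxia in PBS mice gave 1 higher (Cpox) and 2 lower (Ppox and Fech), while 18.9% of all tested genes were called higher and 16.8% lower. DEX in normoxia gave 1 higher (Alas1) and 1 lower (Alad), beside 9.38% and 7.4% of all genes. DEX in hypoxia gave 1 higher (Alas1) and 2 lower (Alad and Uros), beside 6.13% and 7.05%. Hypoxia in DEX mice gave 1 higher (Cpox) and 3 lower (Alas2, Uros and Ppox), beside 20.7% and 22.2%. Counts of 1 to 3 among 8 enzymes do not set them apart from all genes, and what the data show of the enzymes is which of them moved and by how much. The counts of lower enzymes shrank without the libraries named above for Alad, Uros and Ppox. The interaction gave 0 enzymes in either direction by edgeR, beside 0.325% of all genes higher and 0.996% lower, and 0 by DESeq2, beside 0.887% and 1.84%. At an unadjusted p under 0.05 by edgeR it gave 0 higher and 2 lower (Alas2 and Uros), beside 4.44% and 7.81% of all genes. The comparisons share groups, each group entering 2 of the 4 between groups, so their values are not independent of each other.

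**Figure D3:**
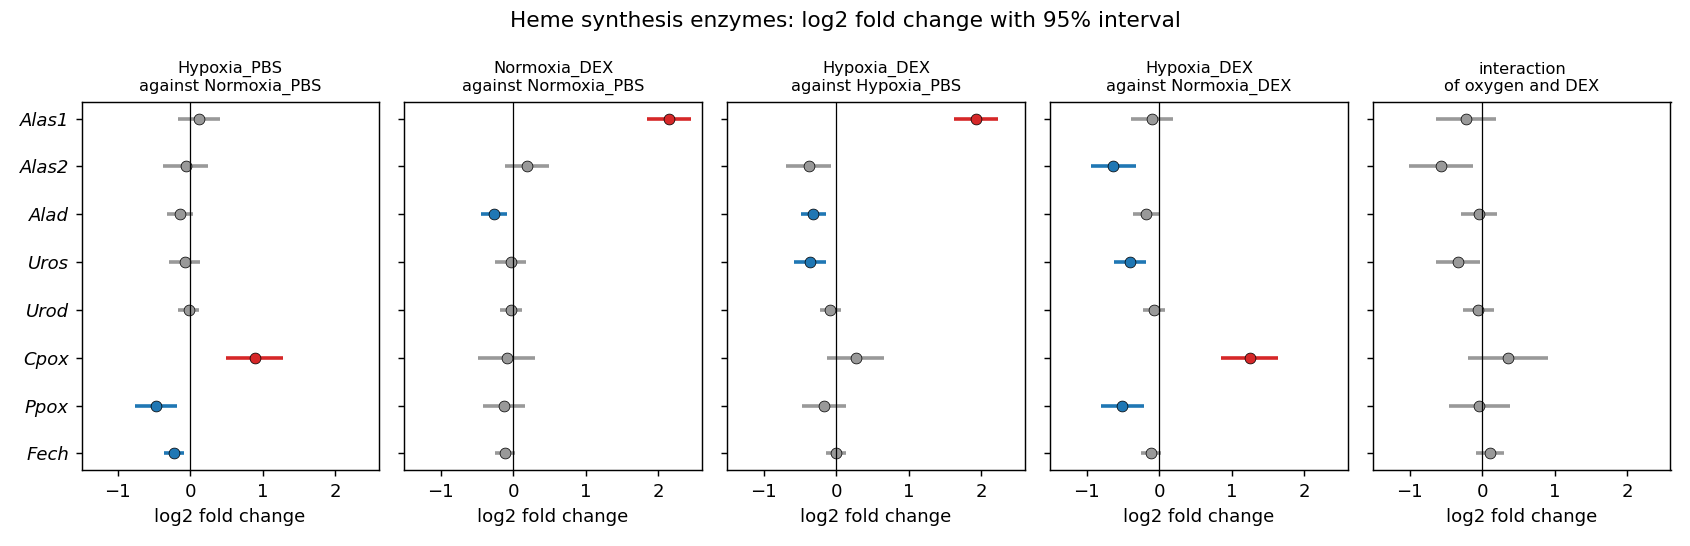
Log2 fold change of the 8 enzymes in 4 comparisons between groups and in the interaction, with 95% intervals from edgeR. Red marks enzymes called higher, blue those called lower at an adjusted p under 0.05, and grey those not called. Alas1 stands at 2.15 and 1.93 in the DEX comparisons, and Cpox at 0.89 and 1.25 in the oxygen comparisons.

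The order of the enzymes was compared on a scale of CPM per kilobase of exon. In Normoxia_PBS, Alas1 stood at 52.2 ± 2.36, Alad at 50.5 ± 3.92, Cpox at 21.6 ± 4.70, Urod at 19.8 ± 0.634, Fech at 11.3 ± 0.333, Alas2 at 7.07 ± 1.05, Uros at 4.70 ± 0.127 and Ppox at 3.65 ± 0.116 (SD, n = 3). Alas1 and Alad differed by less than their summed SDs, and so did Cpox and Urod. After DEX in normoxia, Alas1 reached 232 ± 50.0 and Alad, the next, 41.9 ± 0.863. In Hypoxia_PBS, Cpox stood at 40.1 ± 8.33, within the summed SDs of Alad at 45.7 ± 3.26. In Hypoxia_DEX, Cpox at 48.2 ± 1.38 had passed Alad at 36.8 ± 3.21, and Alas1 stood at 216 ± 6.38. Ppox was the lowest in all 4 groups on this scale. With the length of the main coding transcript in place of all exon bases, Alas1 was still the highest in all 4 groups, Cpox stood above Alad in Hypoxia_PBS, and the order among Alas2, Uros and Ppox changed in Normoxia_PBS, Hypoxia_PBS and Hypoxia_DEX but not in Normoxia_DEX.

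The genes whose pattern over the 12 libraries was most like that of Alas1, by the root mean square difference of centred log2 CPM, were Rbbp8 (0.23), Ripk4 (0.24), Npm3 (0.27), Atp1b1 (0.29) and Gpat4 (0.29), where the spread of Alas1 itself on this measure was 1.03. Rbbp8 averaged 9.66 CPM in Normoxia_PBS and 58.4 CPM in Normoxia_DEX, and 10.4 and 50.1 CPM in the hypoxic groups. None of the other 7 enzymes came close, the nearest being Urod at 1.06. For Alas2 the nearest genes were Tbc1d12 (0.14), Ppil3 (0.15), Spg11 (0.16), Tuba4a (0.16) and Cox11 (0.16), against a spread of 0.29 for Alas2 itself. No gene of the red cell list was among these 5. That absence cannot say whether Alas2 follows the lineage, since only 10 genes of the list were among the 13861 compared.

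Other genes supply and carry the intermediates of heme. Of 23 tested genes for transport and cofactors, 7 were higher and 1 lower under hypoxia in PBS mice, where 18.9% of all tested genes were higher and 16.8% lower, with a list median of 0.14 beside 0.007 for all genes. In DEX mice 9 were higher and 4 lower, where 20.7% and 22.2% of all genes were, with a median of 0.04 beside -0.021. Comparisons by oxygen had more calls than those by DEX over all genes as well. Glrx5, a mitochondrial factor for iron-sulfur clusters, rose by 1.01 and 1.14 (edgeR adjusted p = 4.24e-06 and 1.03e-06), Abcg2, an exporter that carries porphyrins, by 0.89 and 0.94 (2.18e-06 and 8.1e-07), and Tspo, a mitochondrial outer membrane protein that binds porphyrins, by 0.67 and 0.71 (0.000473 and 0.000209). Abcb6, a porphyrin transporter, was lower at -0.61 in PBS mice (edgeR adjusted p = 0.0329) and at -0.69 in DEX mice (0.0147). The first of these calls was lost in 8 alternatives, those without Hypoxia_PBS-1, Hypoxia_PBS-2, Normoxia_PBS-2 or Normoxia_PBS-3 included, and the second without Hypoxia_DEX-2. Slc25a38, the mitochondrial carrier that brings in glycine for aminolevulinate synthase, was at 14.5 to 16.1 CPM on average in the 4 groups, with changes between 0.02 and 0.14 and no call.

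DEX gave 1 call of 23 in that list in normoxia, where 9.38% of all genes were higher and 7.4% lower, and 2 in hypoxia, where 6.13% and 7.05% were. In normoxia 1 gene rose, Flvcr2, a membrane transporter of choline that has also been described as a heme importer, from 4.59 to 20 CPM (log2 2.13, edgeR adjusted p = 4.89e-05), and 0 fell by edgeR, by DESeq2 or at an unadjusted p under 0.05. In hypoxia Flvcr2 went from 6.76 to 12.6 CPM (log2 0.88, edgeR adjusted p = 0.0273, lost without Hypoxia_DEX-2, Hypoxia_PBS-2 or Hypoxia_PBS-3), and Abcb10, a mitochondrial transporter linked to heme synthesis, fell by 0.48 (edgeR adjusted p = 0.0102, lost without Hypoxia_DEX-1). The list medians were 0.03 and 0.04, beside 0.002 and -0.015 for all genes. The interaction of Flvcr2 was -1.25 and did not pass by edgeR (adjusted p = 0.10), while DESeq2 called it lower, the 1 gene of 23 that it called. Over all genes, DESeq2 called 0.887% higher and 1.84% lower in the interaction.

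Among 12 genes that break down or scavenge heme, 3 were higher and 1 lower with DEX in normoxia, and 1 was higher and 2 lower with DEX in hypoxia (list medians 0.09 and 0.11). Of all genes, 9.38% were higher and 7.4% lower with DEX in normoxia, and 6.13% and 7.05% in hypoxia. Hmox1, the inducible heme oxygenase, went from 129 to 49.6 CPM in normoxia (log2 -1.38, edgeR adjusted p = 0.0401) and from 226 to 87.5 CPM in hypoxia (log2 -1.37, edgeR adjusted p = 0.0485). Each of these calls was lost in 12 of 19 alternatives. Both were lost without any single Normoxia_DEX library and without Hypoxia_DEX-3, Hypoxia_DEX-1, Hypoxia_PBS-3, Hypoxia_PBS-2 or Normoxia_PBS-2, the former also without Normoxia_PBS-3 and the latter without Hypoxia_DEX-2. In normoxia Hmox2, the constitutive heme oxygenase, rose by 0.36 (edgeR adjusted p = 0.00424), Hp, the hemoglobin binder haptoglobin, by 0.65 (0.00241), and Cd163, the macrophage receptor for hemoglobin and haptoglobin, by 1.11 (0.0111, lost with only the compared groups). In hypoxia Hmox2 was at 0.25 (edgeR adjusted p = 0.0437) and Blvrb, a biliverdin reductase, at -0.27 (0.0429), calls lost in 8 and 16 of 19 alternatives. The libraries whose absence ended the call were any single Hypoxia_DEX library, Hypoxia_PBS-3 or Normoxia_PBS-1 for Hmox2, and any but Hypoxia_DEX-2 and Normoxia_DEX-2 for Blvrb.

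Under hypoxia the same list had 3 higher and 1 lower in PBS mice and 1 higher and 2 lower in DEX mice (medians 0.08 and -0.03), beside 18.9% and 16.8% of all genes in PBS mice and 20.7% and 22.2% in DEX mice. Fth1, a ferritin chain that stores iron, rose by 0.61 and 0.56 (edgeR adjusted p = 0.00014 and 0.000165), and Lrp1, the receptor for heme bound to hemopexin, fell by 0.48 and 0.65 (0.0061 and 0.000688). Hp rose by 0.37 and Hmox2 by 0.24 in PBS mice (edgeR adjusted p = 0.0308 and 0.0262), calls lost in 5 and 7 of 19 alternatives. Both were lost without Hypoxia_PBS-2, Normoxia_PBS-2 or Normoxia_PBS-1, that of Hp also without Hypoxia_PBS-3 and that of Hmox2 also without Hypoxia_PBS-1. Cd163 fell by 1.02 in DEX mice (edgeR adjusted p = 0.00765) and was at -0.20 in PBS mice (0.58). In both of these comparisons all 10 Kupffer cell markers fell, with medians of -1.28 in DEX mice and -1.31 in PBS mice, and the part of that change in the value of Cd163, a macrophage gene, was not tested.

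In the list of 20 regulators of Alas1 and heme sensors, DEX gave 5 higher and 5 lower in normoxia and 4 higher and 2 lower in hypoxia (medians -0.10 and 0.04), beside 9.38% and 7.4% of all genes in normoxia and 6.13% and 7.05% in hypoxia. Lpin1, a coactivator and lipid enzyme, rose by 2.36 and 2.72 (edgeR adjusted p = 0.000267 and 0.00025), Foxo1, a fasting-responsive factor that acts on Alas1, by 1.21 and 1.28 (0.000557 and 0.000795), and Nr1i2, the drug sensor PXR, by 0.59 and 0.68 (0.000207 and 0.000169). Nr1d1, the heme-binding clock repressor REV-ERB alpha, fell by 2.42 and 1.36 (edgeR adjusted p = 6.22e-06 and 0.00122). Dbp, a clock output factor, fell by 2.34 in normoxia (edgeR adjusted p = 0.00179) and was at -0.13 in hypoxia (0.848), with an interaction of 2.21 that did not pass by edgeR (0.0686). Ppargc1b rose by 1.31 in normoxia (edgeR adjusted p = 0.0238, lost without Normoxia_PBS-1, Normoxia_PBS-2, Normoxia_DEX-3 or Normoxia_DEX-2). Ppargc1a, the coactivator that raises Alas1 in fasting, was at 0.24 in normoxia (edgeR adjusted p = 0.508) and 0.66 in hypoxia (0.0523), the latter passing in 8 of 19 alternatives, those without Hypoxia_DEX-2, Normoxia_PBS-2 or Normoxia_PBS-3 included. Bach1, a repressor that heme inactivates, was at -0.46 (edgeR adjusted p = 0.0915, passing without Hypoxia_PBS-1) and 0.04 (0.901).

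Under hypoxia the same list had 5 higher and 4 lower regulators in PBS mice and 8 higher and 2 lower in DEX mice (medians -0.004 and 0.28), beside 18.9% and 16.8% of all genes in PBS mice and 20.7% and 22.2% in DEX mice. Nr1i3, the drug sensor CAR, rose by 1.08 and 1.63 (edgeR adjusted p = 0.000678 and 3.07e-05), and Tef, a clock output factor, by 1.19 and 1.32 (0.000387 and 0.000139). Nr1d1 fell by 1.81 in PBS mice (edgeR adjusted p = 3.68e-05) and by 0.74 in DEX mice (0.0125, lost without Hypoxia_DEX-3 or Normoxia_DEX-2). Hlf, another clock output factor, rose by 1.21 in PBS mice (edgeR adjusted p = 2.11e-06). By edgeR it was the 1 gene of 20 called in the interaction, lower at -0.65 (edgeR adjusted p = 0.0335), and that call was lost in 10 of 18 alternatives, among them those without any single Hypoxia_DEX library and those without Normoxia_PBS-2, Normoxia_PBS-1, Normoxia_DEX-3 or Normoxia_DEX-2. DESeq2 called Hlf lower in the interaction and 3 others higher, Nr1d1, Nr1d2 and Dbp, which edgeR put at 1.07, 0.68 and 2.21 (adjusted p = 0.0986, 0.0908 and 0.0686). The interaction of Nr1d1 also passed by edgeR without Hypoxia_PBS-1. Of all genes, edgeR called 0.325% higher and 0.996% lower in the interaction, and DESeq2 0.887% and 1.84%. Nr1d2, the other REV-ERB repressor, was named after its values were seen.

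**Figure D4:**
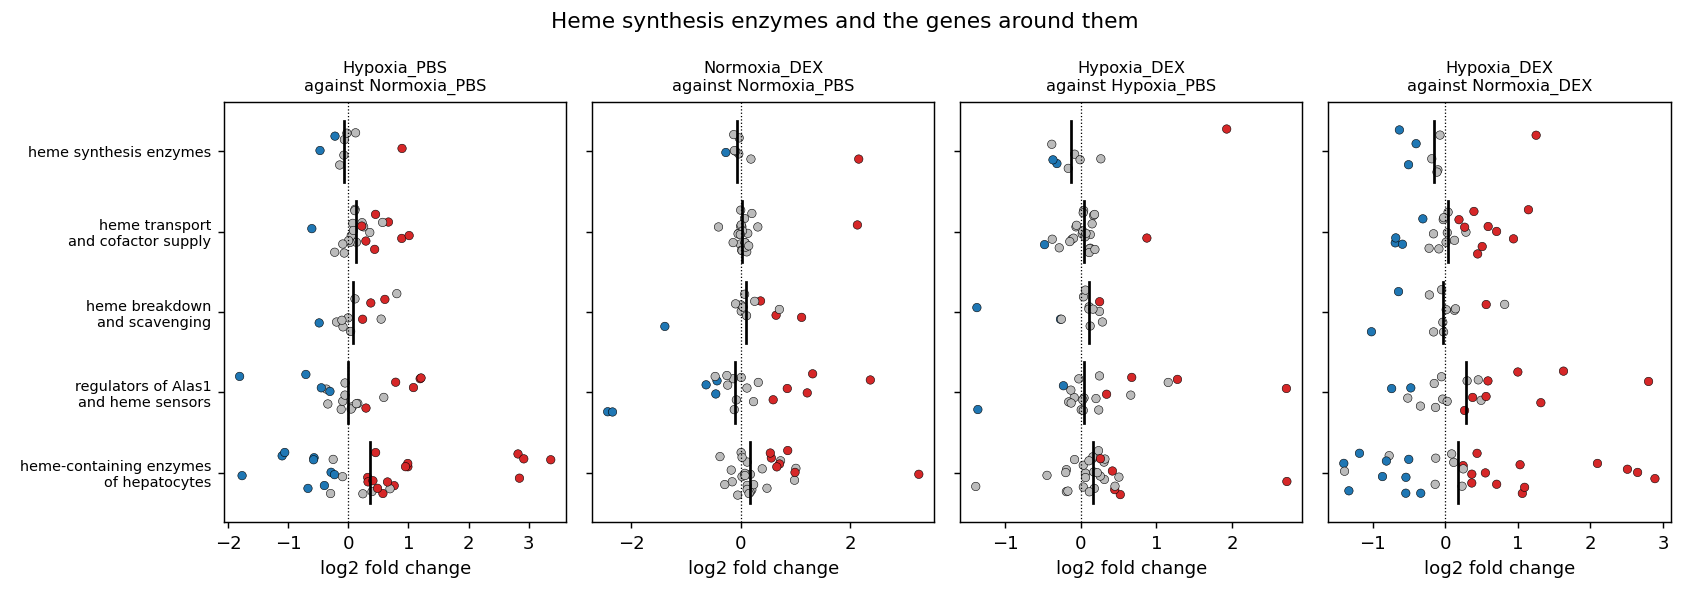
Log2 fold change of each tested gene in the 8 heme synthesis enzymes and in 4 lists around them, in 4 comparisons between groups, with different horizontal scales. Red marks genes called higher, blue those called lower and grey those not called by edgeR, and the black bar is the median of the list. The heme-containing enzymes have 15 higher and 9 lower genes under hypoxia in PBS mice and 7 higher genes with DEX in normoxia.

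The 30 heme-containing enzymes of hepatocytes are mostly cytochromes P450, which use the heme made by this pathway. Under hypoxia 15 were higher and 9 lower in PBS mice, beside 18.9% and 16.8% of all genes, and 13 were higher and 9 lower in DEX mice, beside 20.7% and 22.2% (medians 0.36 and 0.17, beside 0.007 and -0.021 for all genes). Cyp4a10 and Cyp4a14, which oxidize fatty acids, rose by 2.82 and 2.92 in PBS mice (edgeR adjusted p = 4.66e-05 and 5.83e-05) and by 2.65 and 2.51 in DEX mice (4.46e-05 and 9.06e-05). Cyp2d9 rose by 2.84 and 2.10 (edgeR adjusted p = 1.26e-06 and 4.84e-06). Cyp4a12a had the highest fold change, 3.36 and 2.89 (edgeR adjusted p = 0.00536 and 0.00439), at 0.623 to 9.01 CPM on average, and it has a near-identical copy with which reads may have been shared. Cyp1a2, an enzyme of xenobiotic and caffeine metabolism, fell by 1.77 and 1.40 (edgeR adjusted p = 9.91e-06 and 3.49e-05). Cyp2e1, the ethanol-oxidizing form, was at 0.24 and 0.23 (edgeR adjusted p = 0.0631 and 0.0671), values that passed the threshold in 3 and 5 of 19 alternatives, both without Normoxia_DEX-2 and the second also without Hypoxia_PBS-1 or Hypoxia_PBS-2.

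DEX gave 7 higher of these 30 enzymes in normoxia and 5 in hypoxia, and 0 lower by edgeR or DESeq2 at either level, with 0 and 2 lower at an unadjusted p under 0.05 (medians 0.18 and 0.17, beside 0.002 and -0.015). By edgeR 9.38% of all genes were higher and 7.4% lower in normoxia, and 6.13% and 7.05% in hypoxia. Cyp2b10, a drug-inducible form, rose by 3.25 in normoxia and 2.72 in hypoxia (edgeR adjusted p = 0.000223 and 0.00111), and Cyp27a1, the mitochondrial sterol hydroxylase, by 0.71 and 0.45 (8.04e-05 and 0.00424). Tdo2, the heme enzyme that degrades tryptophan and a classical glucocorticoid target, rose by 0.99 in normoxia (edgeR adjusted p = 0.00129) and was at 0.45 in hypoxia (0.0992, passing without Normoxia_PBS-3). In hypoxia Cyp3a13 rose by 0.52 (edgeR adjusted p = 0.00114) and Cyp39a1 by 0.42 (0.0481). The last call was lost in 12 of 19 alternatives, among them those without any single Normoxia_DEX library, Hypoxia_DEX-1, Hypoxia_DEX-3, Hypoxia_PBS-1, Hypoxia_PBS-3 or Normoxia_PBS-1. Cyp3a11, the main drug-oxidizing form of this family, rose by 0.86 in normoxia (edgeR adjusted p = 5.45e-05) and was at 0.18 in hypoxia (0.276). It was the 1 gene of 30 called in the interaction, lower at -0.68 (edgeR adjusted p = 0.036), a call lost in 10 of 18 alternatives, among them those without any single Hypoxia_DEX library and those without Hypoxia_PBS-2, Hypoxia_PBS-3, Normoxia_DEX-1, Normoxia_DEX-3, Normoxia_PBS-1 or Normoxia_PBS-2. Over all genes, edgeR called 0.325% higher and 0.996% lower in the interaction. Alas1, which supplies heme to these enzymes, had no interaction call.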

How the data were processed

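Liver mRNA was sequenced in 12 libraries. The authors deposited raw read counts per gene, whole numbers with no normalization. Per the labels' protocols, the library kit keeps the strand of the mRNA. The submitters' processing notes list Trimmomatic, SAMtools, HISAT2 2.0.4, DESeq2, featureCounts and the mm10 build, in no order. The annotation and strand setting used for counting were not given in the sources used here.

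Counts were filtered with filterByExpr, scaled by TMM and fitted over all 12 libraries in R 4.3.3 with edgeR 4.0.16 (quasi-likelihood test, 1 mean per group). Benjamini-Hochberg adjustment ran over all 13861 genes per comparison, and a call is an adjusted p under 0.05. Log2 CPM used a prior count of 2. The procedure was tested on simulated data. Depth was 12464687 to 24715995 counts per library, so the least abundant of the enzymes, Ppox, rests on 98 to 360 reads. The series' design text calls the 3 libraries of a group biological replicates.

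The enzymes, the gene lists, the alternatives and the naming rule were chosen with earlier results of these data known. The rule names all 8 enzymes, up to 4 called genes per list and comparison with the largest change among those of at least 1 CPM in 1 group, and a set of 14 genes given in any case. Results for some of these genes are not reported here. Of 127 listed genes 126 were found and 114 tested. Positions are from GENCODE M21 (mm10) and promoters from RefSeq (GRCm38.p6). The analyses were repeated with DESeq2 1.42.0, with RLE size factors, without the low-count filter, with replicate number as a block, with the compared groups only, without each library in turn, with the close pair Hypoxia_DEX-1 and Hypoxia_DEX-3 summed, and without both Hypoxia_PBS-1 and Hypoxia_DEX-2, the libraries that stood apart. Figures were drawn with matplotlib 3.10.9.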

Additional observations from a re-analysis of the deposited data

How the results depend on the processing

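Over the 8 enzymes, 696 of 752 values recomputed under an alternative kept their direction and their side of the threshold. Both DEX calls of Alas1, both hypoxia calls of Cpox, and the hypoxia calls of Ppox, Uros and Alas2 in DEX mice and of Fech in PBS mice were kept in 19 of 19. The number of enzymes called lower moved to 1 to 2 for hypoxia in PBS mice, 0 to 1 for DEX in normoxia and 0 to 2 for DEX in hypoxia when single libraries were left out (those named beside Ppox, Alad and Uros). For DEX in hypoxia that number was 1 with no low-count filter, 0 with only the compared groups and 0 with Hypoxia_DEX-1 and Hypoxia_DEX-3 summed. Over all genes, DEX in hypoxia gave 535 to 1215 higher and 470 to 1251 lower genes without single libraries (lowest without Hypoxia_PBS-3 and Hypoxia_DEX-1), with 572 lower with only the compared groups and 516 lower with the pair summed. The interaction gave 17 to 93 higher and 46 to 213 lower genes without single libraries (lowest without Hypoxia_DEX-3, highest without Hypoxia_PBS-1), against 45 and 138. It gave 85 higher with no low-count filter, 19 higher and 51 lower with the pair summed, 153 and 322 with Hypoxia_DEX-2 and Hypoxia_PBS-1 left out, and 123 and 255 by DESeq2. The cause of these shifts was not tested.

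None of the values that changed sign passed the threshold. With Hypoxia_DEX-2 and Hypoxia_PBS-1 left out, DEX in hypoxia gave 0.025 for Ppox, 0.002 for Fech, -0.26 for Bach1, 0.064 for Hba-a1 and 0.044 for Hbb-bs, hypoxia in PBS mice gave -0.004 for Ppargc1a and 0.12 for Bach1, and the interaction gave 0.03 for Urod, 0.16 for Ppox, -0.415 for Hmox1, 0.008 for Slc25a38, 0.037 for Cyp2e1 and 0.011 for Cyp2b10. DEX in hypoxia for Fech was 0.007 with RLE size factors, 0.006 with no filter, 0.021 with the pair summed and 0.007 by DESeq2. The interaction was 0.02 for Alad with the pair summed and, for Cyp2e1, 0.0 with RLE size factors and by DESeq2, 0.008 with no filter and 0.029 with the pair summed. Leaving out single libraries also gave values of both signs. For hypoxia in PBS mice these ranges were -0.18 to 0.03 for Alas2, -0.16 to 0.007 for Uros, -0.092 to 0.021 for Urod, -0.12 to 0.32 for Ppargc1a and -0.18 to 0.12 for Bach1. For DEX in normoxia these ranges were -0.072 to 0.012 for Urod, -0.21 to 0.10 for Cpox and -0.18 to 0.10 for Cyp1a2. For DEX in hypoxia these ranges were -0.007 to 0.026 for Fech, -0.12 to 0.18 for Bach1, -0.095 to 0.15 for Hba-a1, -0.14 to 0.12 for Hbb-bs and -0.018 to 0.12 for Slc25a38. For hypoxia in DEX mice these ranges were -0.25 to 0.032 for Alas1, -0.012 to 0.12 for Slc25a38 and -0.002 to 0.15 for Cyp3a11. For the interaction these ranges were -0.082 to 0.023 for Alad, -0.094 to 0.038 for Urod, -0.14 to 0.12 for Ppox, -0.48 to 0.30 for Hmox1 and -0.064 to 0.12 for Cyp2e1.

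The replicate block, which adds the replicate number of the labels to the model, left every count of called enzymes as it was (interaction over all genes 48 higher and 132 lower). It ended the hypoxia DEX calls of Flvcr2, Hmox2, Blvrb and Cyp39a1 and the interaction call of Hlf, and gave -0.025 for the interaction of Hmox1. With the block, Ppargc1a passed the threshold for DEX in hypoxia, and Bach1 passed for DEX in normoxia and for hypoxia in DEX mice. The labels do not say whether the numbers pair the samples. Of 18 same-numbered pairs, 5 deviated together with a correlation over 0.1 (range -0.25 to 0.50), and 6 of 12 libraries correlated best with their own number. These values cannot decide whether samples were paired, since deviations from a mean of 3 libraries offset each other within a group. Ppox, Uros and Alas2 rest on the fewest reads of the enzymes, 98 to 460. They were not the least precise, since for hypoxia in PBS mice their SEs were 0.137, 0.099 and 0.143. The SE of Cpox, at 1964 to 6173 reads, was 0.179.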
